A study of Mus musculus with 12 samples.

Results

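Tuft cell genes were followed in RNA-seq of mouse colonic crypts. The 32 genes were taken by symbol from a list of genes known to mark or serve tuft cells, and each had 1 row among the 55471 genes of the deposited table. By role they comprised 3 transcription factors, 8 genes of taste transduction, 5 of eicosanoid synthesis, 4 signals and receptors, 5 genes of the cytoskeleton and cell surface and 7 of tyrosine kinase signalling. Of these, 29 passed the filter on low counts and were tested together with all 14610 genes that passed it. By edgeR, 1 of them (Kctd12) was at the cutoff, lower after p53 deletion in CBPWT crypts and in the average over CBP genotypes, where 3.15% and 3.50% of all tested genes were at it. A share of 1 in 29 is near that background, and DESeq2 also placed Gnat3 there in the average, where 4.99% of all genes were.

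Each of the 12 libraries came from the colonic crypts of 1 mouse, with 3 mice per group. All mice were on the C57BL/6J background, and the study's methods give female mice 8 weeks old as the default. CBPAA mice carry, in every cell, a knock-in that replaces 2 serines of the transcriptional coactivator CBP with alanines, and CBPWT mice carry the unaltered protein. The p53ΔIEC mice carry floxed p53 alleles and Cre driven by Villin, a gene of intestinal epithelium, so that p53 is lost from epithelial cells, and the p53-floxed mice carry the same alleles without Cre. The 4 groups were therefore CBPWTp53-floxed, CBPAAp53-floxed, CBPWTp53ΔIEC and CBPAAp53ΔIEC, and the presence of Cre and the deletion of p53 cannot be told apart.

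Tuft cells are rare chemosensory cells of the intestinal epithelium whose identity depends on the POU-domain factor Pou2f3. They sense luminal metabolites through a taste-like cascade that ends in the cation channel Trpm5, and in answer they release the cytokine Il25, acetylcholine, leukotrienes and prostaglandins. Il25 acts on type 2 innate lymphoid cells, whose interleukin 13 in turn favours tuft and goblet cells. Since whole crypts were sequenced, fewer tuft cells and less RNA per tuft cell cannot be told apart in any value given here.

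Because Pou2f3 binds the octamer ATGCAAAT, this sequence was sought on both strands of the RefSeq promoters (GRCm38.p6, 250 bases before to 50 after each start), which were matched for 27 of the 32 genes. No promoter was at hand for Pou2f3, Cd24a, Gnb3, Il25 and Alox5ap. The octamer was present for 3 of the 27 genes, against 1.97% of all 27025 genes and 1.74% of all 32851 windows. These 3 promoters, all those of the 27 genes in which it was found, are shown with the octamer in capitals. Any link between the octamer and the expression values was not tested. Kctd12 is read from chr14:102982638-102982887 (minus strand), Sucnr1 from chr3:60081619-60081868 (plus strand) and Hpgds from chr6:65144886-65144915 (minus strand).
Kctd12: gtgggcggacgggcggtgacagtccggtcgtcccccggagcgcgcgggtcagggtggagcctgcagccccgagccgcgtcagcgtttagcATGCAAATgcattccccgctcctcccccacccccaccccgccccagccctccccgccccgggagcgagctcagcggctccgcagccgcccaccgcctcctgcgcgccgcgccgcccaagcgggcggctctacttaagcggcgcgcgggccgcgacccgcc
Sucnr1: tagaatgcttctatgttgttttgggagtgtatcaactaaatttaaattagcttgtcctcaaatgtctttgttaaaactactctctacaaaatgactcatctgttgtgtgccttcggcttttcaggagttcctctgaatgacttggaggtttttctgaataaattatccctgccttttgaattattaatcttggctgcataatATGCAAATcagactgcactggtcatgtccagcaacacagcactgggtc
Hpgds: ctttactctttATGCAAATacgttggacta

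In all 3 the octamer lay on the strand of the gene. Its first base was 160 bases before the start of Kctd12, 174 before that of Hpgds and 48 before that of Sucnr1. For Hpgds the GENCODE M21 annotation places an exon of the gene over the octamer, and a stretch of 30 bases around it is therefore shown. A match of letters is a description and no measurement of binding.

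Total counts per library ran from 11177430 to 18029125. Trp53 lay at 23.3 to 33.5 TPM (a read level scaled for gene length and library depth) in the 6 p53-floxed libraries and at 3.26 to 6.13 TPM in the 6 p53ΔIEC libraries. In all, 3 libraries stood apart by the summed TPM of 7 Paneth cell genes, namely CBPWTp53ΔIEC 1 with 19057, CBPAAp53-floxed 3 with 12038 and CBPAAp53ΔIEC 3 with 9065, against 360.9 to 5280 in the others. The sum of 9 small intestine genes was also highest in CBPWTp53ΔIEC 1, at 4495, and its mean correlation with its own group was lowest, at 0.952 against 0.971 to 0.991. Summed proliferation genes were 124 TPM in CBPWTp53ΔIEC 1 and 86.6 in CBPAAp53ΔIEC 3, against 263 to 339 in the other 4 p53ΔIEC libraries. Xist, the RNA of the inactive X chromosome, was at 0.683 TPM in CBPAAp53-floxed 1 and at 65.9 to 168 in the rest, and the Y-linked gene Ddx3y was at 0 in all 12. Where leaving out 1 of these libraries moved a count or a median by over 1.5 times, the value without it is given.

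All 32 genes but Gnb3, Gng13 and Il25 had reads enough for a test. Il25, the cytokine that starts the type 2 circuit, had 0 to 6 reads per library and none in 3 of them. Gng13, a G protein gamma subunit, had 0 to 6 reads, and Gnb3, the beta subunit of the taste cascade, had 2 reads over the whole series. A count of 0 allows up to 3 reads, or 0.166 to 0.268 CPM (reads scaled to library depth), so differences in these 3 genes were not detectable. The other levels spanned a wide range. Cd24a, a surface glycoprotein of many epithelial cells, had a mean of 624 TPM, Kctd12 came next with 31.9 TPM, and Chat, which makes acetylcholine, was the lowest of the tested genes at 0.531 TPM. Among the tested genes 18 had a mean below 5 TPM and 8 had a mean above 10 TPM.

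**Figure D1:**
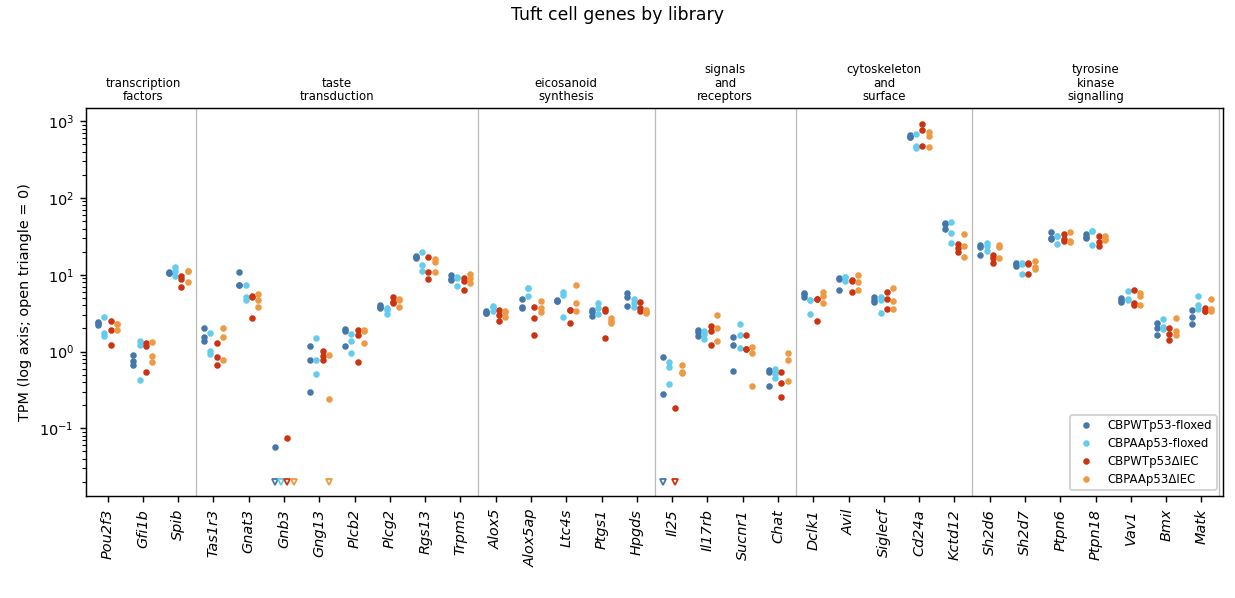
TPM of each of the 32 tuft cell genes (log axis) in the 12 libraries, grouped by role, with 1 point per library coloured by group and an open triangle where at least 1 library of a group was at 0. Cd24a lies near 624 TPM, Kctd12 near 31.9 TPM, and most other genes between 1 and 10 TPM.

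The summed TPM of the 32 genes was 888 ± 25.1 in CBPWTp53-floxed, 777 ± 122 in CBPAAp53-floxed, 917 ± 243 in CBPWTp53ΔIEC and 826 ± 111 in CBPAAp53ΔIEC crypts (SD, n = 3 each). Cd24a made up 65.0% to 81.8% of that sum. Without it the sums were 251 ± 8.79, 242 ± 13.5, 198 ± 27.03 and 220 ± 26.3 TPM in the same order. The p53ΔIEC libraries then ran from 169 to 241 TPM and the p53-floxed libraries from 231 to 257 TPM, so that they overlapped once both CBP genotypes were pooled. Within CBPWT crypts they stood apart, at 241, 255 and 257 TPM without Cre and at 169, 204 and 222 TPM after deletion. Within CBPAA crypts they overlapped, at 257, 231 and 238 against 228, 191 and 241 TPM. The lowest value of all was that of CBPWTp53ΔIEC 1. Within these sums without Cd24a, Kctd12 alone had mean levels of 43.9 TPM in CBPWTp53-floxed and 22.3 TPM in CBPWTp53ΔIEC crypts. In CBPAAp53-floxed and CBPAAp53ΔIEC crypts its means were 36.4 and 25.1 TPM.

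Deletion of p53 in CBPWT crypts was compared first (CBPWTp53ΔIEC against CBPWTp53-floxed). Kctd12, an auxiliary subunit of GABA-B receptors that is abundant in tuft cells, was the only one of the 29 genes at the cutoff of adjusted p under 0.05 and log2 fold change above 0.5 in size, against 3.15% of all tested genes (2.29% higher and 0.856% lower). Kctd12 (chr14:102976581-102982637, minus strand) was at 39.1, 47.2 and 45.4 TPM in CBPWTp53-floxed mice 1 to 3 and at 19.9, 22.2 and 24.9 TPM in CBPWTp53ΔIEC mice 1 to 3. The groups did not overlap. The log2 fold change was -0.94 (SE 0.23, adjusted p = 0.0441 by edgeR's quasi-likelihood test). An exon of Kctd12 overlaps the lincRNA gene Gm26778 on the opposite strand and the miRNA gene Mir5130 on its own strand. The call was lost when any 1 of 9 libraries was left out in turn, with adjusted p between 0.0503 and 0.166, although the log2 fold change stayed between -1.01 and -0.88 over all 12 such fits. Those 9 were all 3 CBPWTp53-floxed, all 3 CBPWTp53ΔIEC, CBPAAp53-floxed 1 and 3 and CBPAAp53ΔIEC 1. It was kept without the 3 libraries high in Paneth cell genes (log2 fold change -0.99, adjusted p = 0.0112), where 9.40% of all genes were at the cutoff.

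In the taste cascade, Gnat3, the G protein alpha subunit gustducin, was at 10.7, 7.40 and 7.37 TPM in CBPWTp53-floxed and at 2.77, 5.28 and 5.16 TPM in CBPWTp53ΔIEC crypts. These groups did not overlap either, but the difference of -0.92 (log2, SE 0.29) did not pass the adjusted threshold (adjusted p = 0.0957 by edgeR). In CBPAA crypts Gnat3 overlapped, at 4.73, 5.09 and 7.38 against 3.82, 4.67 and 5.56 TPM. Tas1r3, a subunit of sweet and umami taste receptors, was lower by 0.82 on the log2 scale (SE 0.37, adjusted p = 0.223) in CBPWT crypts, and the exons of Dvl1 overlap it on the opposite strand. Its TPM was 1.55, 1.39 and 2.04 in CBPWTp53-floxed and 0.845, 0.664 and 1.27 in CBPWTp53ΔIEC crypts. In CBPAA crypts the sign of Tas1r3 was the opposite, with 1.77, 1.02 and 0.933 against 1.53, 0.765 and 2.00 TPM and a log2 difference of 0.11 (SE 0.36, adjusted p = 0.907). Plcg2, a phospholipase C, differed in the other direction, with 3.73 to 4.09 TPM in CBPWTp53-floxed and 4.27 to 5.09 TPM in CBPWTp53ΔIEC crypts, and did not pass the test (log2 difference 0.29, SE 0.18, adjusted p = 0.379). The channel Trpm5 overlapped between the groups, at 8.77, 8.50 and 9.92 against 6.32, 8.20 and 9.09 TPM, and so did Rgs13, a regulator of G protein signalling, at 17.6, 16.7 and 16.9 against 8.87, 17.3 and 11.0 TPM. In CBPAA crypts Trpm5 was at 9.14, 7.06 and 9.21 against 10.3, 7.79 and 9.10 TPM and overlapped. Rgs13 there was at 13.2, 11.0 and 20.0 against 16.0, 10.7 and 14.8 TPM, also with overlap. Plcb2, the other phospholipase C listed under this role, overlapped between the deletion groups of both CBP genotypes. Its log2 difference was -0.22 (SE 0.31, adjusted p = 0.726 by edgeR) in CBPWT crypts. In CBPAA crypts it was 0.20 (SE 0.31, adjusted p = 0.801 by edgeR).

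Dclk1, the kinase used most often to stain tuft cells, was at 5.09, 5.70 and 5.54 TPM in CBPWTp53-floxed and at 2.49, 4.84 and 4.80 TPM in CBPWTp53ΔIEC crypts. The groups did not overlap, the lowest value being that of CBPWTp53ΔIEC 1, and the log2 difference of -0.42 (SE 0.19) had an adjusted p of 0.226. Leaving that library out moved the log2 difference to -0.27 (adjusted p = 0.392). In CBPAA crypts Dclk1 was at 4.64, 3.11 and 4.75 against 5.93, 5.36 and 4.27 TPM, with overlap. Over the 29 genes, 21 were lower and 8 higher, with a median log2 fold change of -0.19 against 0.01 for all tested genes, of which 51.2% were higher. With an unadjusted p under 0.05, 4 genes were lower and none higher, against 8.28% and 12.6% of all tested genes. Groups did not overlap in TPM for 6 genes that were lower and 1 that was higher, against 12.9% and 8.43% of all tested genes.

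Deletion of p53 in CBPAA crypts gave no gene of the 29 at the cutoff by edgeR (4 of all 14610 genes, 0.0274%), none by DESeq2, and 6 with an unadjusted p under 0.05, all lower, against 5.41% of all tested genes lower and 7.19% higher. Of the 29 genes 21 were lower and 8 higher, with a median log2 fold change of -0.19 against 0.01 for all tested genes, of which 52.2% were higher. That tally rested on single libraries. Without CBPAAp53-floxed 3, which is high in Paneth cell genes, 16 were lower and 13 higher with a median of -0.05, and without CBPAAp53ΔIEC 2 the median was -0.10. Without CBPAAp53-floxed 1, the library low in Xist, it was -0.30. Groups did not overlap in TPM for 3 genes that were lower (Hpgds, Alox5ap and Ptgs1) and 1 that was higher (Plcg2), against 2.67% and 11.7% of all tested genes. Kctd12 was at 48.1, 26.2 and 34.8 TPM in CBPAAp53-floxed and at 23.9, 17.3 and 34.1 TPM in CBPAAp53ΔIEC crypts. The overlap was between CBPAAp53ΔIEC 3, a library high in Paneth cell genes, and CBPAAp53-floxed 2. Leaving out either library would part the groups in TPM. The log2 difference of Kctd12 was -0.64 (SE 0.23, adjusted p = 0.334 by edgeR). Without CBPAAp53ΔIEC 3 it was -0.96 (adjusted p = 0.0283), where 2.19% of all genes were at the cutoff. The part of Paneth cell content in this difference was not tested.

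Of the 5 eicosanoid genes none was at the cutoff by edgeR or DESeq2 in a deletion contrast. By edgeR 0 had an unadjusted p under 0.05 in CBPWT crypts, against 20.9% of all tested genes. In CBPAA crypts 3 did, all lower, against 12.6% of all tested genes (5.41% lower). All 5 fitted log2 differences were below 0 in both contrasts. Of all tested genes 51.2% were above 0 in CBPWT crypts and 52.2% in CBPAA crypts. The mean TPM of Ltc4s in CBPAA crypts was nevertheless higher after deletion (5.03 against 4.74). Hpgds, which makes prostaglandin D2, was at 4.29, 3.83 and 4.84 TPM in CBPAAp53-floxed and at 3.15, 3.24 and 3.51 TPM in CBPAAp53ΔIEC crypts, with no overlap. Its log2 difference was -0.53 (SE 0.17, unadjusted p = 0.00962, adjusted p = 0.322 by edgeR). In CBPWT crypts Hpgds was at 3.94, 5.75 and 5.10 against 3.37, 3.67 and 4.38 TPM, and those groups overlapped. Alox5ap, the 5-lipoxygenase activating protein, was at 6.65, 6.75 and 5.31 TPM in CBPAAp53-floxed and at 3.66, 3.25 and 4.59 TPM in CBPAAp53ΔIEC crypts, again apart (log2 difference -0.83, SE 0.32, adjusted p = 0.351).

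Ptgs1, the cyclooxygenase of tuft cells, was at 3.67, 3.12 and 4.23 against 2.34, 2.48 and 2.72 TPM in CBPAA crypts, and its log2 difference was -0.68 (SE 0.24, adjusted p = 0.334). In CBPWT crypts its values of 3.47, 2.91 and 3.24 against 1.48, 3.35 and 3.57 TPM overlapped. Ltc4s, which makes leukotriene C4, was at 2.77, 5.91 and 5.53 against 7.32, 3.42 and 4.34 TPM in CBPAA crypts and at 4.72, 4.52 and 4.58 against 2.35, 3.46 and 3.47 TPM in CBPWT crypts. Only the CBPWT groups stood apart for it, and its log2 difference there was -0.54 (SE 0.37, adjusted p = 0.419). Alox5, the lipoxygenase that starts leukotriene synthesis, was at 3.92, 3.37 and 3.77 against 2.80, 3.28 and 3.39 TPM in CBPAA crypts and at 3.33, 3.16 and 3.21 against 2.51, 3.01 and 3.47 TPM in CBPWT crypts, with overlap in both.

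Summed per library, the 5 eicosanoid genes lay at 19.3 to 20.98 TPM in CBPWTp53-floxed, 21.3 to 23.7 in CBPAAp53-floxed, 13.5 to 16.5 in CBPWTp53ΔIEC and 15.7 to 19.3 in CBPAAp53ΔIEC crypts. The lowest p53-floxed library (19.32) and the highest p53ΔIEC library (19.28) were next to each other. Macrophages also express Alox5, Alox5ap, Ptgs1 and Hpgds. The sum of 7 myeloid genes was 4.08 to 14.4, 10.9 to 24.8, 13.3 to 24.2 and 12.3 to 28.4 TPM in the same order of groups. Of these 7 genes 4 passed the filter on low counts, and none was at 0 in every library. The part of myeloid cells in the levels of the eicosanoid genes was not tested.

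**Figure D2:**
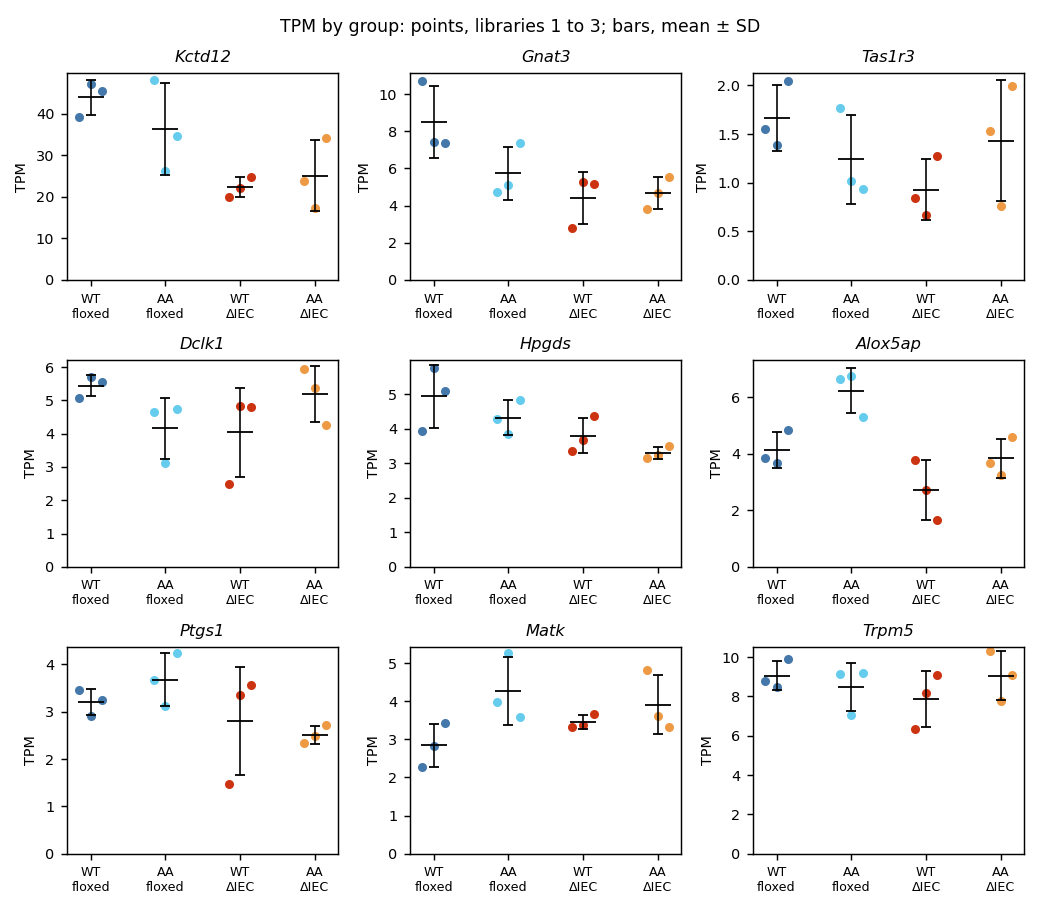
TPM of 9 tuft cell genes in the 4 groups, with 1 point per library (replicates 1 to 3 from left to right) and the mean ± SD (n = 3); each vertical axis starts at 0. Kctd12 lies at 39.1 to 47.2 TPM in CBPWTp53-floxed and at 19.9 to 24.9 TPM in CBPWTp53ΔIEC crypts, while the Trpm5 groups overlap throughout.

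Averaged over both CBP genotypes, Kctd12 was again the only gene of the 29 at the cutoff by edgeR, against 3.50% of all tested genes (0.732% lower). It fell by 0.79 on the log2 scale (SE 0.16, adjusted p = 0.0190 by edgeR). The genes next to it were Hpgds (log2 difference -0.44, SE 0.12, adjusted p = 0.0588) and Gnat3 (-0.68, SE 0.21, adjusted p = 0.0785). Of the 29 genes 22 were lower and 7 higher, with a median log2 fold change of -0.16 against 0.01 for all genes, of which 51.6% were higher. The 8 genes with an unadjusted p under 0.05 were all lower, and comprised Kctd12, Gnat3, Hpgds, Alox5ap, Ptgs1, Spib, Ptpn18 and Sh2d6. Of all tested genes 8.73% were lower and 13.2% higher at that level, or 21.9% in either direction. No gene had all 6 p53ΔIEC libraries below all 6 p53-floxed libraries, against 0.445% of all tested genes. The count at the cutoff fell to 0 without CBPWTp53-floxed 2 or 3, CBPAAp53-floxed 3, CBPWTp53ΔIEC 2 or 3, or CBPAAp53ΔIEC 1. It was 2 without CBPWTp53ΔIEC 1, with Alox5ap added (adjusted p = 0.0126), where 7.18% of all genes were at the cutoff. It was also 2 without CBPAAp53ΔIEC 3, with Gnat3 added (adjusted p = 0.0442), where 6.52% of all genes were. Without the 3 libraries high in Paneth cell genes it was 2 (Alox5ap and Kctd12), where 11.4% of all genes were at the cutoff.

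**Figure D3:**
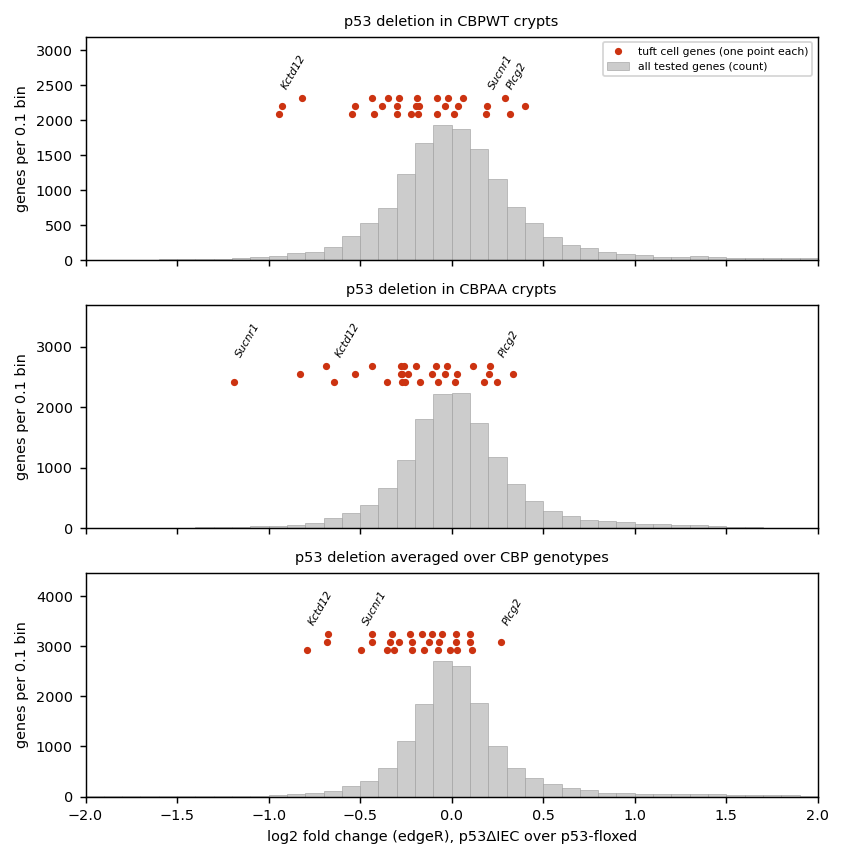
Log2 fold changes of p53ΔIEC over p53-floxed crypts (edgeR) for all tested genes (grey bars, genes per bin) and for the 29 tuft cell genes (red points, whose height carries no meaning), in CBPWT crypts, CBPAA crypts and averaged. The tuft cell genes have medians of -0.19, -0.19 and -0.16, and the averaged value of Kctd12 lies at -0.79.

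Apart from Kctd12, the genes of the remaining roles were not at the cutoff in any deletion contrast by edgeR or DESeq2. Pou2f3 was at 2.22, 2.42 and 2.33 TPM in CBPWTp53-floxed, 2.80, 1.60 and 1.75 in CBPAAp53-floxed, 1.22, 1.89 and 2.53 in CBPWTp53ΔIEC and 2.28, 1.93 and 2.28 in CBPAAp53ΔIEC crypts. All 4 groups overlapped, and the averaged log2 difference was -0.16 (SE 0.17, adjusted p = 0.616 by edgeR). Gfi1b, a zinc finger repressor of tuft cells, rested on 4 to 19 reads per library. Its TPM was 0.748, 0.667 and 0.900 in CBPWTp53-floxed, 1.21, 1.38 and 0.422 in CBPAAp53-floxed, 1.19, 0.548 and 1.28 in CBPWTp53ΔIEC and 1.32, 0.736 and 0.865 in CBPAAp53ΔIEC crypts, with overlap between all groups. Spib, an Ets factor also found in B cells and M cells, lay between 6.92 and 12.5 TPM.

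Among signals and receptors, Il17rb, the Il25 receptor subunit, was at 1.60, 1.77 and 1.899 TPM in CBPWTp53-floxed, 1.68, 1.47 and 1.82 in CBPAAp53-floxed, 1.23, 2.16 and 1.84 in CBPWTp53ΔIEC and 2.95, 2.02 and 1.38 in CBPAAp53ΔIEC crypts, with overlap between all groups. Sucnr1, the succinate receptor, had 3 to 28 reads per library, and its log2 difference in CBPAA crypts of -1.19 (SE 0.48) had an adjusted p of 0.369. In CBPWT crypts the difference of Sucnr1 had the opposite sign, at 0.19 (SE 0.47, adjusted p = 0.851). Chat was at 0.582, 0.357 and 0.541 TPM in CBPWTp53-floxed, 0.598, 0.510 and 0.452 in CBPAAp53-floxed, 0.253, 0.391 and 0.540 in CBPWTp53ΔIEC and 0.947, 0.409 and 0.786 in CBPAAp53ΔIEC crypts. It rested on 6 to 24 reads per library.

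Among the structural and surface genes, Avil (advillin, an actin-binding protein) was at 6.24, 9.03 and 8.73 TPM in CBPWTp53-floxed, 8.40, 9.21 and 9.44 in CBPAAp53-floxed, 8.35, 6.00 and 8.56 in CBPWTp53ΔIEC and 8.09, 6.40 and 10.0 in CBPAAp53ΔIEC crypts, with overlap between all groups. Siglecf, a sialic acid-binding lectin shared with eosinophils, lay between 3.20 and 6.65 TPM, while 2 of 3 eosinophil genes were at 0 in every library and their sum was at most 0.217 TPM. Of the signalling genes, Sh2d6 was at 22.8, 24.4 and 18.2 TPM in CBPWTp53-floxed, 24.0, 26.2 and 20.2 in CBPAAp53-floxed, 14.3, 16.6 and 18.3 in CBPWTp53ΔIEC and 23.3, 16.3 and 24.4 in CBPAAp53ΔIEC crypts, and its averaged log2 difference was -0.33 (SE 0.13, adjusted p = 0.153). The CBPWT groups for Sh2d6 overlapped by 1 library. Ptpn6 and Ptpn18, protein tyrosine phosphatases, had mean levels of 30.5 TPM each, and Sh2d7, Vav1 and Bmx ranged over 10.1 to 15.2, 4.03 to 6.25 and 1.41 to 2.73 TPM.

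The effect of the CBPAA knock-in was then read within each p53 state. In p53-floxed crypts 0 of the 29 genes, and 0% of all tested genes, were at the cutoff by edgeR (DESeq2 also gave none of the 29), and 2 had an unadjusted p under 0.05, both higher, against 3.86% of all tested genes higher, 4.18% lower and 8.04% in either direction. Matk, a kinase that restrains Src family kinases, was at 2.28, 2.83 and 3.42 TPM in CBPWTp53-floxed and at 3.98, 5.28 and 3.58 TPM in CBPAAp53-floxed crypts. The groups did not overlap, and the log2 difference was 0.72 (SE 0.21, unadjusted p = 0.00491, adjusted p = 0.618). In p53ΔIEC crypts Matk was at 3.32, 3.38 and 3.65 TPM in CBPWT and at 4.81, 3.60 and 3.33 TPM in CBPAA mice, with overlap. Alox5ap was at 3.86, 3.66 and 4.85 against 6.65, 6.75 and 5.31 TPM, also without overlap, with a log2 difference of 0.72 (SE 0.32, adjusted p = 0.618). This contrast and the deletion contrast in CBPAA crypts share the CBPAAp53-floxed libraries. Over the 29 genes 18 were higher and 11 lower, with a median log2 fold change of 0.04 against 0.01 for all genes, of which 52.0% were higher. Without CBPAAp53-floxed 1 the tally was 23 and 6 (median 0.11), and without CBPAAp53-floxed 2 it was 24 and 5 (median 0.13). The median was 0.07 without CBPWTp53-floxed 2 and 0.09 without CBPWTp53-floxed 3, and the tally was 15 and 14 without CBPAAp53-floxed 3. Groups stood apart for 3 genes that were higher and 2 that were lower, against 2.55% and 14.4% of all tested genes. The higher were Matk, Alox5ap and Alox5, and the lower were Dclk1 and Plcg2. Dclk1 lay at 5.09 to 5.70 TPM in CBPWTp53-floxed and at 3.11 to 4.75 TPM in CBPAAp53-floxed crypts. Its log2 difference was -0.26 (SE 0.19, adjusted p = 0.697 by edgeR).

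In p53ΔIEC crypts none of the 29 genes was at the cutoff for CBPAA against CBPWT (0.00684% of all tested genes; DESeq2 none of the 29), and 1 had an unadjusted p under 0.05. This was Chat, higher by 0.83 (log2, SE 0.36, adjusted p = 0.985), against 1.81% of all tested genes higher and 1.76% lower. Groups of the 29 genes overlapped in every case, while 3.17% of all tested genes stood apart higher and 1.66% lower. Of the 29 genes 21 were higher and 8 lower, with a median log2 fold change of 0.13 against -0.01 for all tested genes, of which 47.7% were higher. Without CBPAAp53ΔIEC 3 the tally was 16 and 13 (median 0.05), and without CBPAAp53ΔIEC 2 it was 25 and 4 (median 0.19). The interaction, which asks whether the effect of p53 deletion differed between CBP genotypes, also gave none at the cutoff (0.00684% of all tested genes; DESeq2 none of the 29). Dclk1 was the only gene with an unadjusted p under 0.05 there, against 10.3% of all tested genes, and its difference between the contrasts was 0.60 (log2, SE 0.27, adjusted p = 0.482). Kctd12 differed between the contrasts by 0.30 (SE 0.32, adjusted p = 0.732). At the cutoff in CBPWT and not in CBPAA crypts, Kctd12 was thus not shown to respond differently in the 2 genotypes.

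**Figure D4:**
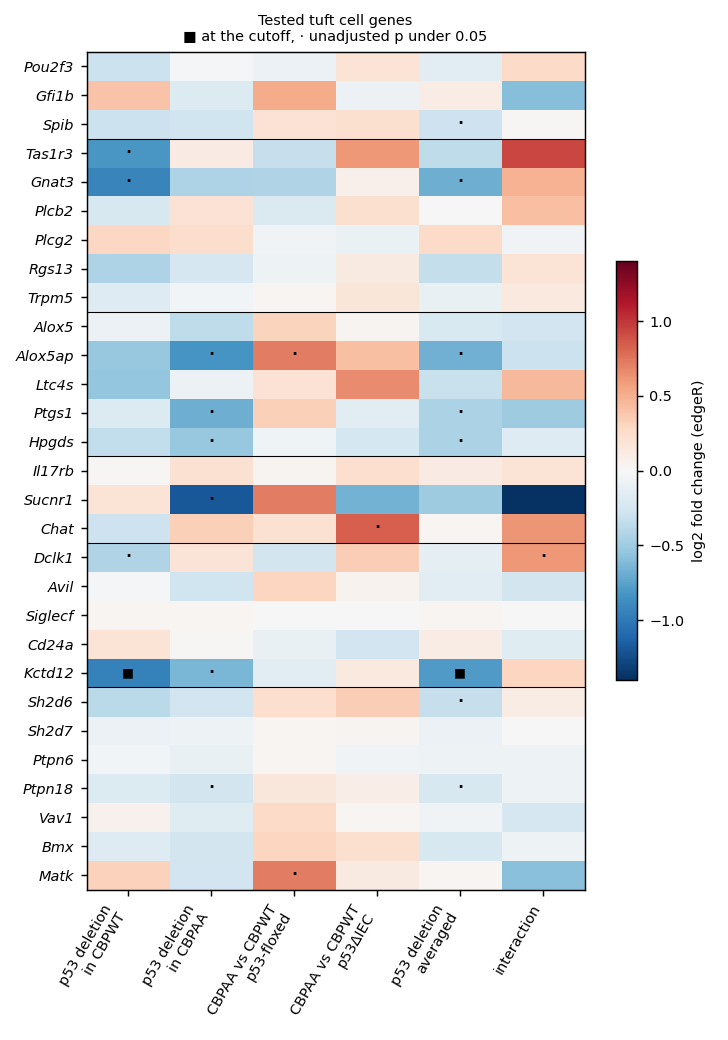
Log2 fold changes (edgeR, colour scale) of the 29 tested tuft cell genes in the 6 contrasts, with roles separated by lines, squares for genes at the cutoff and dots for an unadjusted p under 0.05. Squares appear for Kctd12 alone, in CBPWT crypts and in the average, and the eicosanoid genes are blue in both deletion columns.

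The genes also varied between mice of a group. CBPWTp53ΔIEC 1 held the lowest TPM of 16 of the 29 genes (55.2%), among them Dclk1, Trpm5 and Pou2f3, and of 30.5% of all tested genes. As a description over the 12 libraries, Kctd12 (Spearman's rho 0.83) and Tas1r3 (0.83) followed the summed TPM of the other tested genes without Cd24a most closely, and 23 of 29 genes had a positive rho (median 0.39). With Cd24a in the sum, 16 of 29 were positive (median 0.15), that gene making up most of the sum. After the group means were removed on the log2 scale, 28 of 29 were positive, with the highest values for Pou2f3 (0.92), Trpm5 (0.77) and Chat (0.76) and a median of 0.43. The libraries share depth and crypt composition, and CBPWTp53ΔIEC 1 enters every one of these values. No such rho was taken for sets of other genes. Whether tuft cell genes varied together more than other genes was therefore not tested.

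**Figure D5:**
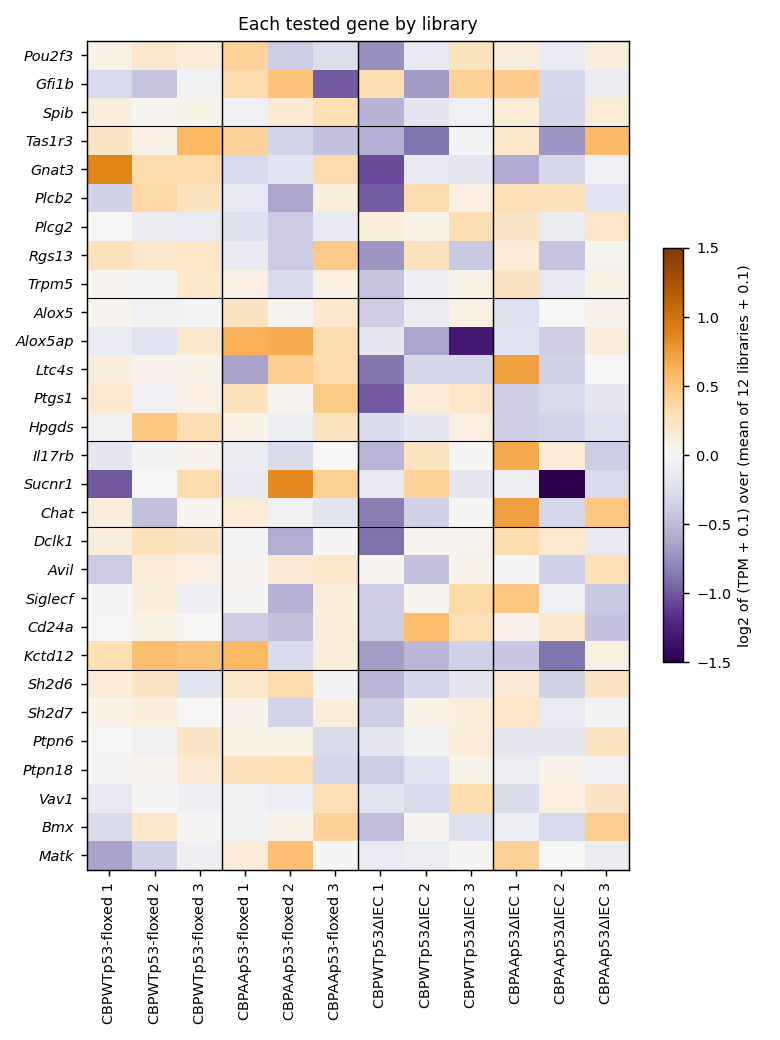
Log2 of TPM + 0.1 over the mean of the 12 libraries + 0.1, for each tested tuft cell gene (rows, by role) in each library (columns). The column of CBPWTp53ΔIEC 1 is purple for most genes, being the lowest library for 16 of 29.

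Further genes of the tuft cell signature were read alongside. Of 25 such genes 23 were found and tested, and edgeR placed none of them at the cutoff in any of the 6 contrasts. At an unadjusted p under 0.05 there were 0 to 5 per contrast, against 3.57% to 21.9% of all tested genes. DESeq2 placed 1 at the cutoff, Krt18 in the deletion contrast of CBPAA crypts, where 69 of 13712 genes were. In the averaged deletion contrast 17 were lower and 6 higher, with a median log2 fold change of -0.11. Of all tested genes 51.6% were higher there. An unadjusted p under 0.05 was found for 5 (4 lower and 1 higher), against 21.9% of all tested genes. Pik3r5, a regulatory subunit of phosphoinositide 3-kinase, was lower by 0.45 (log2, SE 0.09, adjusted p = 0.0175 by edgeR), short of the fold cutoff. The most abundant were Krt18 (852 TPM), a keratin of all simple epithelia, Ildr1 (138 TPM) and Inpp5j (76.5 TPM), with averaged log2 differences of -0.22, -0.11 and 0.33.

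Of 19 further genes of eicosanoid synthesis and its receptors, 10 were tested, and neither edgeR nor DESeq2 placed any at the cutoff in any contrast. By edgeR 0 to 3 per contrast had an unadjusted p under 0.05, against 3.57% to 21.9% of all tested genes. In the averaged contrast 5 were higher and 5 lower. Ptges3, a chaperone with prostaglandin E synthase activity, was higher by 0.28 (log2, SE 0.07, adjusted p = 0.0494), below the fold cutoff. Hpgd, which degrades prostaglandins, was the most abundant at 375 TPM and lower by 0.25 (SE 0.11, adjusted p = 0.204). The receptor genes Cysltr1, Cysltr2 and Ptgdr2 did not pass the filter on low counts.

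In the type 2 circuit, 8 of 14 genes were tested and edgeR placed 1 at the cutoff. Gsdmc4, a gasdermin induced by interleukins 4 and 13, rose with p53 deletion in CBPWT crypts (log2 fold change 0.90, SE 0.21, adjusted p = 0.0385 by edgeR). In that contrast 3.15% of all tested genes were at the cutoff. The same gene was higher in CBPAAp53-floxed than in CBPWTp53-floxed crypts by 0.99, with an adjusted p of 0.560 by edgeR. DESeq2 placed Gsdmc2 and Gsdmc4 at the cutoff in both contrasts, which share the CBPWTp53-floxed libraries. It placed 865 of 13712 genes there for p53 deletion in CBPWT crypts and 33 of 27137 for CBPAA in p53-floxed crypts. In CBPAA crypts 7 of the 8 tested genes were lower after deletion and 1 higher, while 52.2% of all tested genes were higher. None of the 8 was at the cutoff by edgeR or DESeq2. By edgeR 3 had an unadjusted p under 0.05, against 12.6% of all tested genes. There Gsdmc4 differed by -0.16, Gsdmc2 by -0.52 and Retnlb by -1.69 on the log2 scale (adjusted p = 0.768, 0.369 and 0.382 by edgeR). All 8 had a negative interaction, while 47.5% of all tested genes had a positive one. By edgeR none was at the cutoff and 2 had an unadjusted p under 0.05, against 10.3% of all tested genes. DESeq2 placed Gsdmc2 at the cutoff in the interaction, where 30 of 14705 genes were. Clca1 (5954 TPM) and Retnlb (1703 TPM), goblet cell products, had averaged log2 differences of -0.68 and -0.74 and passed no test. The cytokine genes Il4, Il5, Il9 and Il13 did not pass the filter, 3 genes of this list being at 0 in every library.

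Markers of other cells that could share tuft cell genes were read as sums. Summed TPM ran from 2.03 to 6.52 for 6 T cell genes, from 0.292 to 1.62 for 6 genes of B and plasma cells, from 2.96 to 5.84 for 3 genes of all leukocytes, from 0.629 to 1.72 for stroma and endothelium and from 1.12 to 2.52 for enteric neurons and glia. The 7 mast cell genes summed to 28.8 to 47.5 TPM, nearly all of it Kit (mean 34.1 TPM), which colonic crypt cells express too, and the other 6 did not pass the filter. By contrast the 7 epithelial genes summed to 14779 to 29169 TPM, the 5 goblet cell genes to 6319 to 12048 and the 7 enteroendocrine genes to 382 to 696. Of the proliferation genes 8 of 8 rose at the cutoff in the averaged deletion contrast (median log2 fold change 1.67), against 2.77% of all tested genes, and 7 of 8 in CBPWT crypts, against 2.29%. In CBPAA crypts edgeR placed 0 of 8 at the cutoff (lowest adjusted p 0.320) and DESeq2 placed 3, beside 69 of all 13712 genes. There 8 had an unadjusted p under 0.05 by edgeR, against 12.6% of all tested genes. In the deletion contrasts edgeR placed no gene of the enteroendocrine or goblet cell lists at the cutoff. DESeq2 placed 1, Neurod1, in CBPAA crypts, again beside 69 of all 13712 genes. By edgeR 0 to 2 per list had an unadjusted p under 0.05, against 12.6% to 21.9% of all tested genes. Whether a larger share of dividing cells bears on the lower tuft cell values was not tested.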

How the data were processed

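RNA of colonic crypts, released with 30 mM EDTA, was sequenced after preparation with a stranded mRNA kit from 12 mice, 3 per group. The authors deposited 1 table with raw read counts and TPM per gene and library, and with their own fold changes and p-values, which were not used. The submitters' processing notes name fastp 0.20.0, FastQC 0.11.9, HISAT2 2.1.0, SAMtools 1.9, featureCounts of Subread 2.0.1 and the build GRCm38. Whether counting used strand is not given in the sources used here, so 13 of the 32 genes, whose exons overlap another gene, are uncertain to that extent. Deposited TPM served for levels and sums. Deposited counts were tested with edgeR 4.0.16 under R 4.3.3. Genes were kept by filterByExpr at its minimum count of 10, scaled by TMM, and fitted with a robust quasi-likelihood model of 4 groups over 12 libraries, with Benjamini-Hochberg adjustment over 14610 genes, and standard errors were taken from the F statistic. DESeq2 1.42.0 served as an alternative. The fit was tested on simulated counts.

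Total counts ran from 11177430 to 18029125 per library, and intervals and limits from counts cover counting error only. Groups and replicate numbers came from the labels, and p-values measure the spread between mice. Named with values in every library were a set of 15 genes and any tuft cell gene at the cutoff or with an unadjusted p under 0.01 in a comparison. From other lists, genes at the cutoff or the 3 of highest mean TPM were named, and Pik3r5, Ptges3, Hpgd, Gsdmc2, Kit and Neurod1 were chosen after their values were seen. The members and lists were chosen with earlier results of these data known. Gene positions are from GENCODE M21, promoters from RefSeq, both on GRCm38. Alternatives were DESeq2, its size factors, other filters, a replicate block, only the groups compared, and each library left out in turn.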

Additional observations from a re-analysis of the deposited data

How the results depend on the processing

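The count of tuft cell genes at the cutoff was 1 (Kctd12) for p53 deletion in CBPWT crypts and was 0 without a filter on low counts, where the adjusted p of Kctd12 was 0.0978. In the averaged contrast it was 1, and 2 with DESeq2 (Gnat3, adjusted p = 0.0438, and Kctd12), where 4.99% of all genes were at the cutoff. With each library left out in turn the counts ran from 0 to 1 in CBPWT crypts, from 0 to 1 in CBPAA crypts, from 0 to 2 in the average, and were 0 throughout in the other 3 comparisons. With CBPWTp53ΔIEC 1 and CBPAAp53ΔIEC 3 left out together, an alternative chosen after seeing the data, the counts were 2 in CBPWT crypts, 3 in CBPAA crypts and 3 in the average. Of all genes 9.23%, 8.12% and 11.4% were at the cutoff in that fit. With CBPAAp53-floxed 3 left out as well the counts were 1, 2 and 2, against 9.40%, 7.94% and 11.4% of all genes. The cause of these changes was not tested. The averaged log2 fold change of Kctd12 lay between -0.98 and -0.68 over 19 alternatives. Over all alternatives 20 of the 29 genes kept their sign in CBPWT crypts, 17 in CBPAA crypts and 20 in the average.

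Replicate numbers were shared between groups, but they did not pair the mice. Over 18 pairs of libraries with the same number, the correlation of deviations from the group means ran from -0.526 to 0.548 and was above 0.1 in 3, and 3 of 12 libraries matched best to their own number. With the replicate number as a block the count in CBPWT crypts was 0 (Kctd12 adjusted p = 0.0639) and that in the average stayed at 1, and over all genes the counts moved from 460 to 32 and from 511 to 304. DESeq2 gave 865 and 758 over all genes, and leaving out 1 library gave 1 to 906 and 105 to 1073. A fit of only the 2 groups compared gave 723 in CBPWT crypts. In CBPAA crypts the count over all genes was 4, and 69 with DESeq2, 11 without a filter, 2 with the block, 1 with only the 2 groups compared, and 1 to 326 with a library left out. Without both libraries named above the counts over all genes were 1370, 1205 and 1697, and without all 3 they were 1395, 1177 and 1695. The other comparisons had 0 or 1 over all genes. For CBPAA against CBPWT in p53-floxed crypts DESeq2 gave 33, no filter 3, and leaving out those 2 or 3 libraries 12 or 22. For the interaction DESeq2 gave 30, no filter 2 and the block 0.

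The mean summed TPM in p53ΔIEC over p53-floxed crypts was 1.05, 0.849 without Cd24a, and 0.987 to 1.10 with a library left out. It was 0.810 without the genes counted as shared with leukocytes. That set (Ptpn6, Vav1, Plcg2, Alox5, Alox5ap, Spib, Siglecf, Cd24a, Hpgds, Matk and Bmx) itself held Cd24a, which makes up most of the sum. Kctd12 stayed in both reduced sums. Groups of 3 limit every test, and 3 of the tested genes (Gfi1b, Sucnr1 and Chat) had under 10 reads in some library.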
